A study of Mus musculus with 19 samples.

Results

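The 33 genes described here encode the subunits of Mediator: the 26 of the core complex and the 7 of its kinase module, paralogs included. They were chosen by symbol, as the transcript clusters whose platform annotation gives exactly 1 gene symbol that is a Mediator subunit, and all 33 were found among 22180 such genes. Where several clusters carried one subunit (Med7, Med10, Med24, Med26 and Med27, with 2 each), the cluster with the highest mean over the 19 arrays was used. Values are RMA signals on a log2 scale, so a difference of 1 is a 2-fold difference.

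Mediator is a large coactivator that passes signals from DNA-bound transcription factors to RNA polymerase II and the general transcription factors at promoters. It is built from a head and a middle module that meet the polymerase, a tail module that meets many activators, a scaffold subunit that joins them, and a kinase module that binds reversibly and can block the contact with the polymerase. MED1, a middle module subunit, carries short LXXLL motifs through which nuclear receptors such as the fat cell regulator PPAR gamma bind the complex.

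The series knocked out Med1 and measured RNA on mouse whole-transcript arrays. The first experiment used 3T3-L1, a mouse preadipocyte line that forms fat cells after a hormone cocktail: the parental wild-type cells and MED1-KO cells made by CRISPR/Cas9, on day 0 and on day 2 of differentiation, with 2 arrays in each of the 4 groups. The MED1-KO arrays hold pools of RNA from individual clones, so cloning and the knockout of Med1 cannot be told apart. The second used interscapular brown fat of embryos at E17.5, from Myf5CreMed1f/w (3 control arrays, with 1 floxed and 1 wild-type allele) and Myf5CreMed1f/f (4 knockout arrays). Both of these groups carry Myf5-Cre, which is active in precursors of skeletal muscle and brown fat and leaves Med1 intact in the other cells of the depot. The adult experiment used interscapular brown fat of 10-week-old mice, Med1f/f without Cre (2 control arrays) and AdipoqCreMed1f/f (2 knockout arrays). Adipoq-Cre acts in fat cells, spares the blood vessels, immune cells and fibroblasts of the tissue, and was absent from the control mice, so the Cre itself and the deletion cannot be told apart. For 4 of the 8 cell arrays the day in the title conflicts with the day in the source label. The title was followed, and values with the other label stand beside the comparisons of days.

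The array medians were 4.69 to 4.79 in cells, 3.49 to 3.57 in embryonic and 2.87 to 2.89 in adult brown fat, so no level is compared across experiments. Tissue labels matched their markers: Ucp1, the uncoupling protein of brown fat, read 10.07 to 11.59 in embryonic and 12.09 and 12.50 in adult controls, and the preadipocyte receptor Pdgfra read 10.82 to 11.11 in the cell arrays. All 33 subunits lay above the lower quartile of every array. Within a group the median SD of the subunits was 0.07 to 0.17. Where nothing in the labels says that replicates are separate cultures, animals or litters, p-values measure only the spread between these arrays, which may be technical.

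Med1 itself was read first, since it checks the labels. Wild-type cells read 8.23 and 8.48 on day 0 and 8.55 and 8.28 on day 2, and MED1-KO cells read 7.07 and 7.16 on day 0 and 7.08 and 7.0 on day 2. Every knockout array lay below every wild-type array, and the difference was -1.15, -1.32, -1.47 and -1.28 in the 4 pairs of arrays that share a day and a replicate number. The fit over these pairs gave a log2 fold change of -1.31 ± 0.08 (SE), a 2.47-fold lower signal (limma, adjusted p = 0.0011). A signal of about 7 remained in the knockout cells. The cluster measures all the probes it holds, and the edited position is not given in the sources used here, so this remaining RNA says nothing about the protein.

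In E17.5 brown fat the Med1 arrays of the genotypes overlapped. Controls read 6.94, 7.33 and 7.82, and Myf5CreMed1f/f embryos 7.0, 7.10, 7.10 and 6.88. The control value of 7.82 lay highest, and the lowest control was below 3 of the 4 knockout arrays. The log2 fold change was -0.35 ± 0.19, with a 95% interval of -0.79 to 0.10 (limma, adjusted p = 0.37), and it ran from -0.12 without control replicate 3 to -0.56 without control replicate 1. The controls also carried Myf5-Cre and 1 floxed allele, so Med1 may not be intact in their Cre-active cells, and its part in these values was not tested. In these bulk samples fewer cells of a type and less RNA per cell cannot be told apart. The array with the highest Med1, control replicate 3, also had the lowest mean of the 13 skeletal muscle markers, 6.22 against 7.36 and 7.55 in the other controls and 8.09 to 8.25 in the knockouts, and the part of tissue composition in the Med1 values was not tested.

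Adult controls read 5.99 and 6.90 for Med1 and AdipoqCreMed1f/f mice 5.28 and 5.13. The knockout arrays were both lower, and the controls differed from each other by more than the nearest arrays of the 2 groups did. The log2 fold change was -1.24 ± 0.31, and it missed the threshold over all genes (unadjusted p = 0.0097, limma adjusted p = 0.19). The value was between -0.79 and -1.70 when 1 array was left out.

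**Figure D1:**
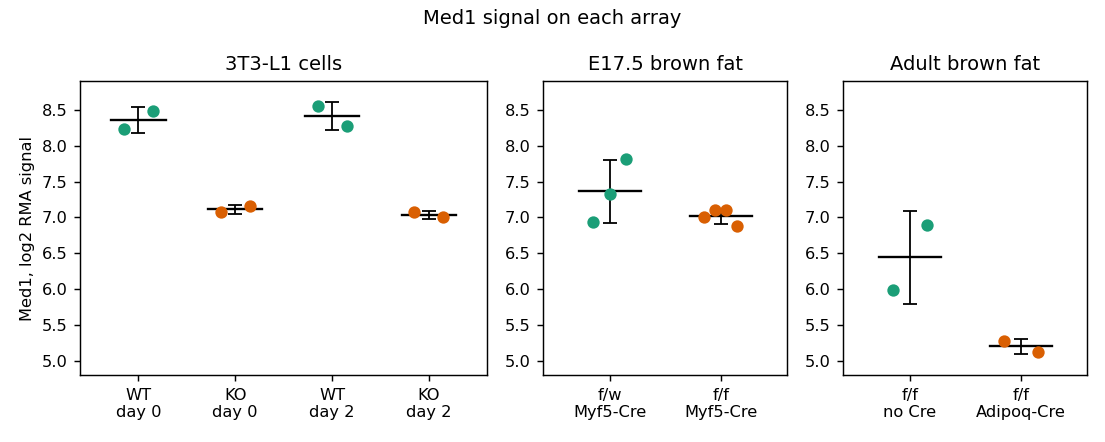
Med1 signal (log2 RMA units, vertical axis) on each of the 19 arrays, one point per array, with the group mean as a line and the SD as a bar, by genotype and day. Knockout arrays lie below all wild-type arrays in 3T3-L1 cells (7.0 to 7.16 against 8.23 to 8.55), overlap the controls at E17.5, and lie below both controls in adult brown fat, where the controls are 5.99 and 6.90.

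The next comparison asked whether the other 32 subunits shift in MED1-KO 3T3-L1 cells. Over both days together they stayed close to wild type: apart from Med1, no subunit passed the test. In this fit each of the 32 had a 95% interval within 0.5 log2 units of no change. Limma called 1 of the 33 subunits, Med1, against 0.289% of all genes in this comparison. At an unadjusted p under 0.05 there were 8 subunits (24.2%, against 12.3% of all genes), and 10 had the same sign in all 4 pairs (30.3%, against 21.8%). Without Med1 these counts were 7 (21.9%) and 9 (28.1%). The intervals of all genes were within 0.5 for 89.1%. In the comparisons by day fewer were: 23 of the 32 subunits on day 0 (71.9%, against 60.1% of all genes). On day 2 there were 21 (65.6%, against 54.7%). Over both days the subunits' median log2 fold change was 0.05, beside 0.00 for all genes.

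By the naming rule, Med9 and Med13 had the next largest values among subunits whose pairs all moved one way. Med9, a small subunit of the middle module, differed by -0.12, -0.08, -0.29 and -0.52 in the pairs. The largest gap was in the second day 2 pair, and the log2 fold change of -0.25 ± 0.10 did not pass (limma, adjusted p = 0.35). Med13, the kinase module subunit that links the module to the core, differed by 0.27, 0.06, 0.07 and 0.52. Its log2 fold change was 0.23 ± 0.10 (adjusted p = 0.40). The other 5 subunits at an unadjusted p under 0.05, listed after their values were seen, were Med10 (-0.21), Med30 (-0.21), Med26 (0.19), Cdk19 (0.18) and Med20 (0.18), each with an SE of 0.08 and an adjusted p of 0.35 to 0.40.

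Within the modules, the middle module had a median of -0.05 with 6 of 9 values negative, and the kinase module a median of 0.15 with 6 of 7 values positive. The head module had 5 of 7 positive values (median 0.01), the tail module and the metazoan subunits next to it 6 of 9 (median 0.05), and Med14, the backbone, a value of 0.11. These splits are descriptions, since apart from Med1 no member of any module passed.

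Taken by day, Med1 was again the single subunit called on each day. On day 0 its log2 fold change was -1.24 ± 0.15 (limma, adjusted p = 0.016), where 0.185% of all genes were called. The call was lost without knockout replicate 1 or 2 or wild-type replicate 2 (adjusted p = 0.17, 0.12 and 0.11). Med6, a head subunit that helps hold the complex on the polymerase, read 7.38 and 7.24 in wild-type and 7.55 and 7.69 in knockout arrays, a log2 fold change of 0.31 ± 0.13. Med21, which forms with Med7 the hinge of the middle module, read 7.60 and 7.64 against 7.36 and 7.38, a log2 fold change of -0.25 ± 0.12. The arrays of both genes stood apart by genotype on day 0, as those of 34% of all genes did, and both adjusted p-values were 1.

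On day 2 the Med1 value was -1.38 ± 0.15 (adjusted p = 0.0078), and 0.266% of all genes were called. It missed the threshold without either knockout array (adjusted p = 0.085 each). Med9 read 7.77 and 7.95 in wild-type and 7.48 and 7.43 in knockout cells. Its knockout arrays lay below both wild-type arrays, and the log2 fold change of -0.40 ± 0.12 did not pass (adjusted p = 0.41). Med13 read 9.42 and 9.09 against 9.49 and 9.61, a value of 0.30 ± 0.15 (adjusted p = 0.65). With days by the source label no subunit was called on either day, since Med1 then missed the threshold. Its knockout arrays were still the lower ones. They read 7.07 and 7.08 against 8.23 and 8.55 on source-label day 0, and 7.16 and 7.0 against 8.48 and 8.28 on day 2. Groups by that label mix the title days, so their spread includes the change between those days.

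**Figure D2:**
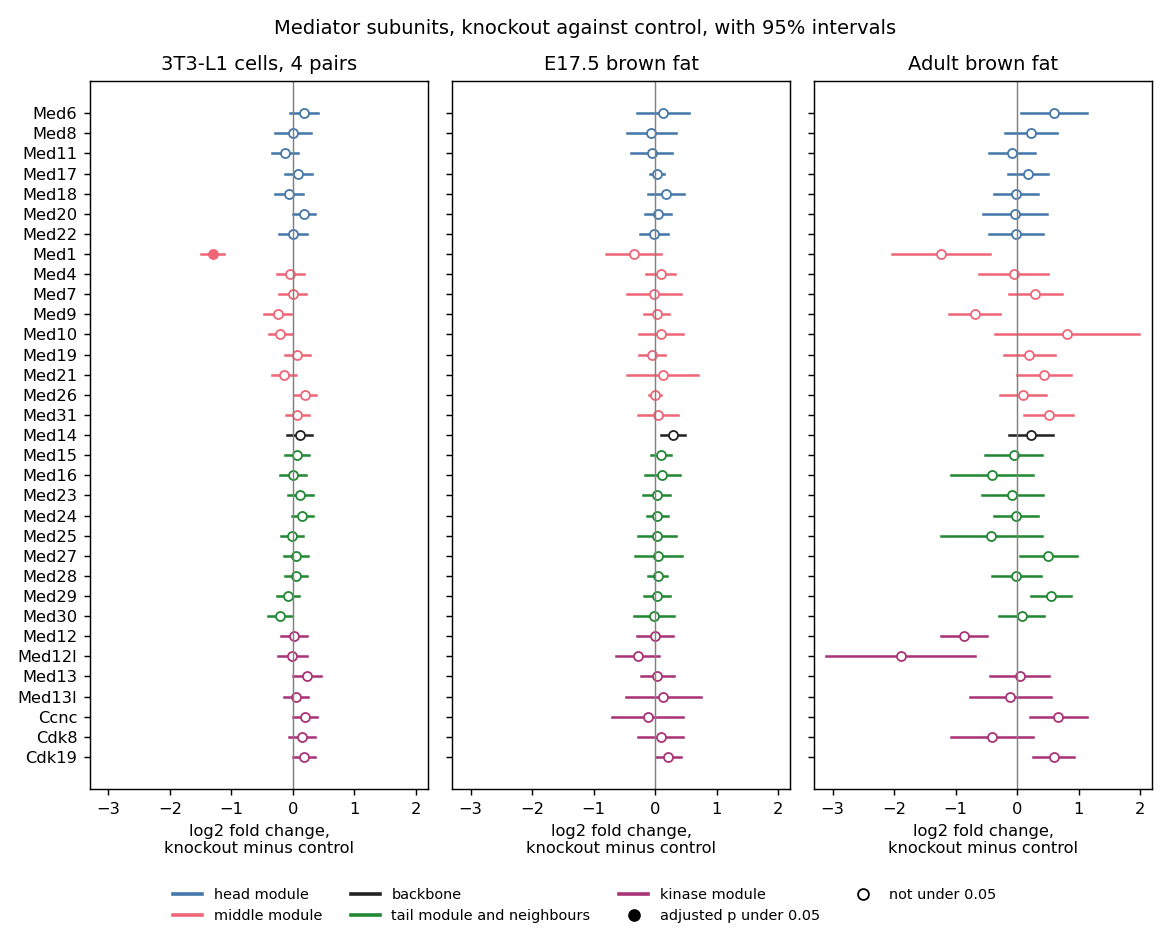
Log2 fold change of knockout against control (horizontal axis) for each of the 33 subunits, with its 95% interval, in 3T3-L1 cells over 4 pairs, E17.5 brown fat and adult brown fat; colours mark the modules and a filled point an adjusted p under 0.05. Med1 in cells is the single filled point; the intervals in cells are narrow around 0, and those of adult brown fat, from 2 arrays against 2, are the widest.

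The comparison of days asked which subunits change as 3T3-L1 cells enter differentiation. In wild-type cells 3 subunits rose between day 0 and day 2 and none fell: Med9, Med13l and Med22, one each from the middle, kinase and head modules. That is 9.09% of the subunits against 9.07% of all genes called, a share at the background. Counting only genes called higher, the background was 3.44%. Med9 read 6.99 and 6.98 on day 0 and 7.77 and 7.95 on day 2, and the days did not overlap. It rose by 0.87 ± 0.12 on the log2 scale, 1.83-fold (limma, adjusted p = 0.0023).

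Med13l is a paralog of Med13, which can take its place in the kinase module. It read 9.18 and 9.01 on day 0 and 10.05 and 9.81 on day 2. The days were apart, and it rose 1.78-fold (0.83 ± 0.14, adjusted p = 0.0064). Med22, a small head subunit, read 6.43 and 6.68 on day 0 and 7.06 and 7.36 on day 2, a 1.57-fold rise (0.65 ± 0.15, adjusted p = 0.024). The Med22 call was lost without wild-type day 0 replicate 1 or day 2 replicate 2 (adjusted p = 0.14 and 0.13), and the Med13l call was lost when all 19 arrays shared one estimate of the spread (adjusted p = 0.068). Over the alternatives with days by title the adjusted p ran from 0.0026 to 0.068 for Med13l and from 0.0084 to 0.14 for Med22. Centring or quantile normalization left all 3 rises called.

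In knockout cells Med13l and Med9 rose too, 2 subunits where 5.7% of all genes were called and 2.14% were called higher. Med13l read 9.29 and 9.08 on day 0 and 9.92 and 9.95 on day 2, a 1.68-fold rise (0.75 ± 0.14, adjusted p = 0.015). Med9 read 6.87 and 6.90 on day 0 and 7.48 and 7.43 on day 2, a 1.49-fold rise (0.57 ± 0.12, adjusted p = 0.027). Without any 1 of the 4 knockout arrays Med9 missed the threshold (adjusted p of 0.11 to 0.16), and Med13l kept its call only without day 0 replicate 1.

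Med29, a subunit next to the tail, had the next largest value in knockout cells. It read 6.60 and 6.93 on day 0 and 7.09 and 7.27 on day 2, a value of 0.41 ± 0.17 that did not pass (adjusted p = 0.23). In wild-type cells it read 6.64 and 6.92 against 7.22 and 7.45, a value of 0.56 ± 0.17 (adjusted p = 0.074). That value passed with the replicate number as a block (adjusted p = 0.016) and when all 19 arrays shared one estimate of the spread (0.018). Med22, given here outside the naming rule, had a value of 0.41 ± 0.15 in knockout cells (adjusted p = 0.18). Med1 was not called between the days in either genotype: its value was 0.06 ± 0.15 in wild-type and -0.08 ± 0.15 in knockout cells.

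**Figure D3:**
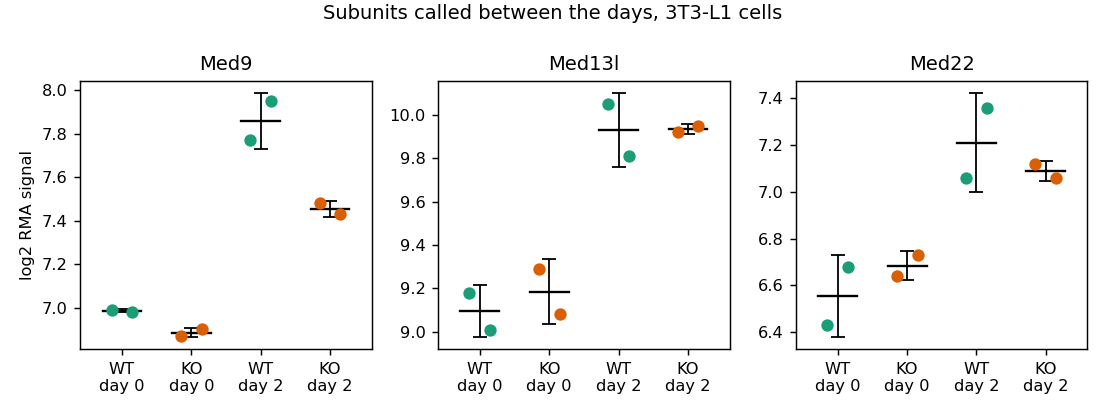
Signal (log2 RMA units, separate vertical scale for each gene) of Med9, Med13l and Med22 on the 8 cell arrays, one point per array, with group mean and SD, for wild type (WT) and MED1 knockout (KO) on day 0 and day 2. For all 3 genes the day 2 arrays of both genotypes lie above the day 0 arrays; Med9 on day 2 reads 7.77 and 7.95 in wild type and 7.43 and 7.48 in knockout cells.

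The subunits' changes over the days were alike in sign: 27 of 33 had the same sign in wild-type and knockout cells, 17 higher and 10 lower, with a Pearson r of 0.83 across the subunits. The points share the array design and its normalization, and the correlation is a description. The same count and correlation were not computed over all genes, so this likeness is not shown to be particular to the subunits. The lowest value in both genotypes was that of Med30, a metazoan subunit, at -0.37 ± 0.17 in wild-type and -0.33 ± 0.17 in knockout cells, and neither passed.

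Whether a subunit's change over the days depended on genotype was tested as a difference of differences. Limma called 0 of 33 subunits and 0% of all genes, and at an unadjusted p under 0.05 there were 0 subunits and 4.24% of all genes. For Med1 the difference, knockout minus wild type, was -0.14 ± 0.21, for Med9 -0.30 ± 0.17, for Med13l -0.08 ± 0.20, and for Med22 -0.25 ± 0.21. The 95% interval for Med9 ran from -0.69 to 0.09. The smaller rise of Med9 in knockout cells is therefore not shown to differ from that in wild-type cells.

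All of these values depend on the title for the day. By title, 2012 genes were called between the days in wild-type cells and 1265 in knockout cells, and by the source label none. Arrays of a title day also stood together in both genotypes for Vdr and Pdgfrb, picked after their values were seen. Vdr read 8.08 to 8.64 on title day 0 and 10.26 to 10.56 on title day 2. Pdgfrb read 10.21 to 10.35 and 8.41 to 8.63 in the same order. The source label gives day 0 to every replicate 1 cell array and day 2 to every replicate 2 cell array. Days by that label are thus a comparison of replicate numbers. Each group by the source label mixes arrays of both title days, and no subunit was then called in either genotype. Med9 then had values of 0.09 in wild-type and -0.01 in knockout cells, Med13l of -0.20 and -0.09, and Med22 of 0.27 in wild-type cells.

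**Figure D4:**
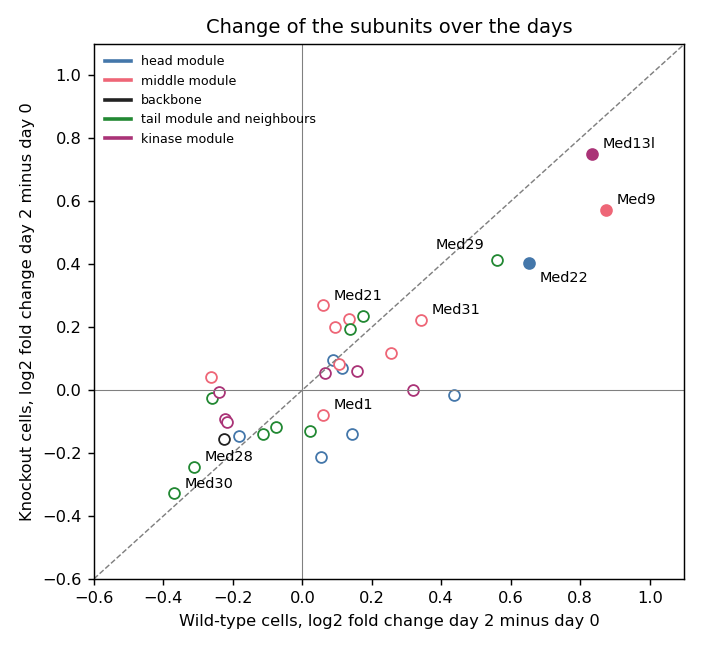
Log2 fold change from day 0 to day 2 in wild-type cells (horizontal axis) against that in MED1 knockout cells (vertical axis), one point per subunit, coloured by module and filled where the adjusted p was under 0.05 in at least 1 genotype; the dashed line marks equal change. Med9 and Med13l, called in both, and Med22, called in wild type, lie farthest to the upper right, and Med30 and Med28 to the lower left.

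The promoters of the 3 subunits that rose, and of Med1 for comparison, are shown because they are the sequences nearest to these changes. RefSeq promoters (GRCm38.p6) were matched for 28 of the 33 subunits. Each line gives the 150 bases before the annotated start, 5′ to 3′ on the gene's own strand, in lower case. Capitals mark matches, on either strand, to the GC box GGGCGG bound by KLF and SP factors (CCGCCC on the other strand), the loose C/EBP pattern TTNNGNAA, and the CCAAT box. No shown match overlaps another.
Med9 at chr11:59948064-59948213, plus strand: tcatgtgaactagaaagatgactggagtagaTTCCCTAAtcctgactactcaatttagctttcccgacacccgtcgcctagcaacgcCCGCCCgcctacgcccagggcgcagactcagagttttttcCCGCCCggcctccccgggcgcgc
Med13l at chr5:118560569-118560718, plus strand: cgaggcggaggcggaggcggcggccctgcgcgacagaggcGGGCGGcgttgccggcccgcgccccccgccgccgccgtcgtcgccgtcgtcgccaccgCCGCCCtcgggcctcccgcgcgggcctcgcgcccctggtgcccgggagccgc
Med22 at chr2:26910643-26910792, minus strand: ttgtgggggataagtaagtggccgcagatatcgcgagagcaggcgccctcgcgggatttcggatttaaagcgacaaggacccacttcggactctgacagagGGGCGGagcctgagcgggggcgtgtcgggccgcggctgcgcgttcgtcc
Med1 at chr11:98192907-98193056, minus strand: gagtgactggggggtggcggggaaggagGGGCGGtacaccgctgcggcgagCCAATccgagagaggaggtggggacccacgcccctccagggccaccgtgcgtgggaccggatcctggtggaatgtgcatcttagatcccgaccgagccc

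Med9 holds 1 loose C/EBP match 119 bases before the start and GC boxes at 63 and 23. Med13l has GC boxes at 110 and 52, Med22 at 49, and Med1 at 122 with a CCAAT box at 99. The Med13l stretch is 86.7% G and C and the Med9 stretch 59.3%. Over the whole window, from 250 bases before to 50 after the start, the GC box was in 18 of 28 subunit promoters (64.3%), against 46.3% of 17491 promoters of protein-coding genes. The ETS motif CCGGAAG was in 7 (25%, against 11.9%): Med4, Med6, Med14, Med15, Med17, Med18 and Med19, none of which was called between the days.

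Of the hormone-linked motifs, TTNNGNAA was in 8 (28.6%, against 37.8%), the glucocorticoid receptor core AGAACA in 3 (10.7%, against 16.4%), the nuclear receptor core AGGTCA in 6 (21.4%, against 14.5%), Med9 among them at 163 bases before its start, and the cyclic AMP element TGACGTCA in 1, Med21 (3.6%, against 2.3%). The CCAAT box was in 11 (39.3%, against 39.0%), the TATA box TATAAA in 3 (10.7%, against 13.3%) and the E-box CACGTG in 4 (14.3%, against 7.9%). The median subunit promoter held 22 CpG dinucleotides and was 57.8% G and C, against 13 and 56.3%. A match is a run of letters and was not tested for binding, and short patterns are met often in promoters rich in G and C.

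In E17.5 brown fat the question was whether knockout of Med1 in Myf5-Cre precursors shifts the rest of the complex. Limma called 0 of 33 subunits, against 1.16% of all genes, and 2 subunits had an unadjusted p under 0.05 (6.06%, against 20% of all genes). Their median was 0.04, beside -0.01 for all genes, and 27 of 33 had a 95% interval within 0.5 log2 units of no change (81.8%, against 74.8%). Equal values on several arrays can narrow such an interval. They occurred in 11 of 33 subunits, Med26 with 5.0 on all 7 arrays among them, and in 57.2% of all genes. One subunit had arrays apart between the genotypes, Med14 (3.03%, against 15.4% of all genes).

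Med14, the scaffold that joins head, middle and tail, read 8.31, 8.34 and 8.11 in controls and 8.45, 8.60, 8.66 and 8.48 in knockouts. Every knockout array was above every control array. The log2 fold change was 0.29 ± 0.08, or 1.22-fold, and did not pass (unadjusted p = 0.0085, limma adjusted p = 0.11). Cdk19, the other subunit under an unadjusted 0.05 and outside the naming rule, is a paralog of the kinase Cdk8. It read 5.83, 6.08 and 5.99 in controls and 6.08, 6.08, 6.30 and 6.28 in knockouts, with a shared value of 6.08, a log2 difference of 0.22 ± 0.09 that did not pass (adjusted p = 0.23).

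Cell type markers moved in the same arrays. The 13 skeletal muscle markers had a median log2 fold change of 1.20 with 0 called, the 10 brown fat markers a median of -0.94 with 2 called lower (Ucp1 and Dio2), and the 7 measured fibroblast markers a median of 0.60 with 2 called higher (Col1a1 and Col3a1). Their part in the subunits' values was not tested. Identical values were frequent in the embryonic arrays: 11 of 33 subunits (33.3%, against 57.2% of all genes) had the same value on at least 2 arrays. Med26, which recruits elongation factors, read 5.0 on all 7 arrays and is 1 of 47 genes with a single value there, so its difference of 0.00 is no measurement of stability. Leaving out any 1 array left 0 genes called in this comparison.

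In adult brown fat the question was the same for knockout of Med1 in fat cells, with 2 arrays against 2. Limma called 0 of 33 subunits, against 0.0271% of all genes. At an unadjusted p under 0.05 there were 10 (30.3%, against 13.6% of all genes), 4 lower and 6 higher, and the arrays of 15 stood apart by genotype (45.5%, against 41.9%). Without Med1 these counts were 9 (28.1%) and 14 (43.8%). The subunits' median was -0.02. Precision was lower than in the other experiments: 8 subunits had a 95% interval within 0.5 log2 units of no change, and 23 had one within 1.

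The 3 subunits named by the rule here were Med12l, Med1 and Med12. Med12, the subunit that activates the kinase of the module, read 7.23 and 7.19 in controls and 6.46 and 6.22 in knockouts. The gap between the groups exceeded the spread within either, and the log2 fold change was -0.87 ± 0.15, or 1.83-fold lower (unadjusted p = 0.0017, limma adjusted p = 0.11). Med12l, the paralog of Med12, read 6.14 and 4.68 in controls and 3.65 and 3.38 in knockouts. Both knockout arrays were lower, but the controls differed from each other by over 1 log2 unit. Its log2 fold change was -1.89 ± 0.48 (adjusted p = 0.19), between -1.16 without control replicate 1 and -2.63 without control replicate 2.

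Med12l spans other protein-coding genes in the RefSeq annotation, among them Gpr171, P2ry12, P2ry13 and Igsf10. P2ry12 read 3.50 and 3.10 in controls and 4.68 and 3.94 in knockouts, and P2ry13 read 3.42 and 2.61 against 3.99 and 3.77. Gpr171 read 3.34 and 2.4 against 2.45 and 2.43. A cluster annotated to both Igsf10 and Med12l, which the rule left out, read 4.21 and 3.51 in controls and 4.47 and 4.19 in knockouts, so it did not follow the Med12l cluster downward.

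The other subunits under an unadjusted 0.05, listed after their values were seen, were Med9 on the lower side and Cdk19, Med29, Ccnc, Med31, Med6 and Med27 on the higher side. Med9 read 6.10 and 6.22 in controls and 5.63 and 5.31 in knockouts, a value of -0.69 ± 0.16 (adjusted p = 0.17). Med9 overlaps Rasd1, which read 8.04 and 6.80 in controls and 4.13 and 4.41 in knockouts. At E17.5 Rasd1 read 5.33 to 6.14 in controls and 4.23 to 4.94 in knockouts, where Med9 read 6.74 to 6.89 and 6.67 to 7.02. In wild-type cells Rasd1 read 3.92 and 3.69 on day 0 and 4.55 and 4.3 on day 2. Knockout cells read 3.82 and 3.93, then 3.67 and 3.89. Whether the 2 clusters share signal was not tested. Cdk19 read 5.07 and 4.99 in adult controls against 5.63 and 5.62 in knockouts, with almost no spread within a group. Its value was 0.59 ± 0.13 (limma, adjusted p = 0.15).

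Med29 read 5.15 and 5.09 in controls and 5.65 and 5.70 in knockouts, a value of 0.55 ± 0.13 (adjusted p = 0.17). Ccnc, the cyclin of the kinase module, read 6.52 and 6.11 against 6.94 and 7.02, a value of 0.67 ± 0.18 (adjusted p = 0.21). Med31 (0.51 ± 0.15), Med6 (0.60 ± 0.21) and Med27 (0.51 ± 0.18) had adjusted p-values of 0.25, 0.33 and 0.33. The kinase module thus held values of both signs: Med12 and Med12l were lower, Ccnc and Cdk19 higher, and Med13 (0.04 ± 0.19), Med13l (-0.11 ± 0.26) and Cdk8 (-0.41 ± 0.26) within the spread of their arrays.

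Markers of other cells stood beside these values. The mean of the 8 macrophage and leukocyte markers was 4.87 and 4.59 in controls and 5.85 and 6.05 in knockouts, with 8 of 8 higher and 0 called, and that of the 10 brown fat markers 7.98 and 8.71 against 7.36 and 7.73. Within that brown fat list Dio2, picked after its values were seen, read 5.07 and 9.49 in controls and 4.99 and 7.5 in knockouts. The 7 measured fibroblast markers had a median of 0.63 with 0 called. The 9 fat cell markers had a median of -0.42, with 7 lower, 2 higher and 0 called. The mean of the 13 skeletal muscle markers was 3.31 and 4.21 in controls and 3.19 and 3.71 in knockouts. Their part in the subunits' values was not tested. A fit in which all 19 arrays share one estimate of the spread called 6 subunits, Med1, Med9, Med12 and Med12l lower and Cdk19 and Med29 higher, with adjusted p-values of 0.00079 to 0.022. That fit assumes that a gene varies alike in all 3 experiments. Over all alternatives the adjusted p of Med12 ran from 0.0026 to 0.48.

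**Figure D5:**
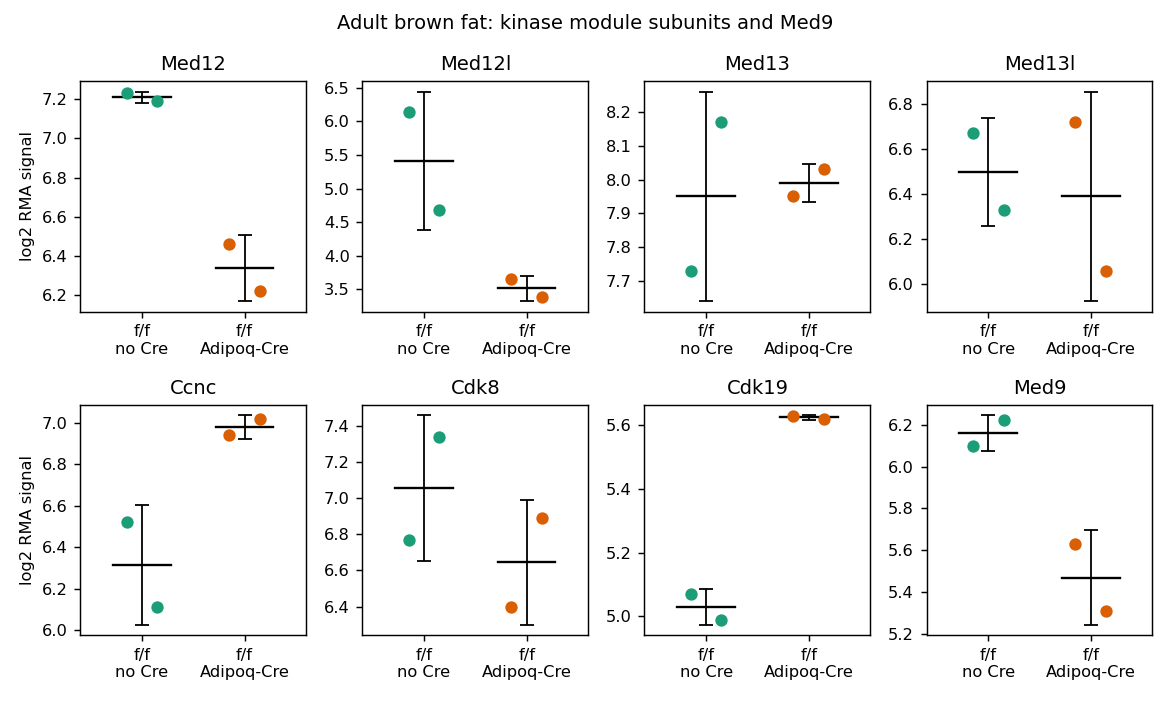
Signal (log2 RMA units, separate vertical scale for each gene) of the 7 kinase module subunits and Med9 on the 4 adult brown fat arrays, one point per array, with group mean and SD, for Med1f/f without Cre and AdipoqCreMed1f/f. Med12, Med12l and Med9 lie lower in both knockout arrays, Ccnc and Cdk19 higher, and Med13, Med13l and Cdk8 overlap; none passed the adjusted threshold.

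The knockout values in embryonic and adult brown fat were set side by side by a test of their difference over all 11 arrays. Limma called 0 of 33 subunits, against 1.99% of all genes, and 6 had an unadjusted p under 0.05 (18.2%, against 16.3% of all genes). Without Med1 there were 5 (15.6%). Age, Cre driver and control genotype all differ between these experiments and cannot be told apart here. Med1 differed by -0.89 ± 0.37, adult minus embryonic (adjusted p = 0.26), so a difference between the experiments was not shown. Med12 had 0.00 ± 0.13 in the embryo and -0.87 ± 0.15 in the adult, a difference of -0.87 ± 0.20 (adjusted p = 0.057). Med9 had 0.03 ± 0.09 in the embryo, and its difference was -0.71 ± 0.17 (adjusted p = 0.066). Med12 passed with a filter on dim genes (adjusted p = 0.049) and without E17.5 knockout replicate 1 (adjusted p = 0.042), Med9 without adult knockout replicate 1 (0.039), and Med12l without adult control replicate 2 (0.0084). In the same test the 8 macrophage and leukocyte markers had a median of 1.24 with 4 called higher, and the 13 skeletal muscle markers a median of -1.58 with 1 called lower, and their part in the subunits' values was not tested.

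The levels of the other subunits are given as ranges over the arrays of an experiment, in the order of the modules. In the head module, Med8 read 5.57 to 6.17 on the 8 cell arrays, 5.10 to 5.76 on the embryonic and 4.38 to 4.85 on the adult arrays. Med11 read 6.55 to 7.15, 5.85 to 6.36 and 4.49 to 4.74 in the same order. Med17, the scaffold of the head, read 6.42 to 6.77, 5.58 to 5.71 and 4.75 to 4.94. Its narrow range in the embryo holds 3 knockout values of 5.60. Med18 read 5.23 to 5.79, 4.45 to 4.93 and 3.25 to 3.45. Med20, its partner at the movable jaw of the head, read 8.16 to 8.46, 6.99 to 7.34 and 6.12 to 6.62. No head subunit other than Med22 in wild-type cells was called in any comparison.

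In the middle module, Med4 read 6.17 to 6.78 in cells, 6.13 to 6.52 in embryonic and 4.71 to 5.28 in adult brown fat. Med7 read 6.14 to 6.56, 4.99 to 5.74 and 4.51 to 4.99. Med10, next to Med14, read 7.61 to 8.05, 6.08 to 6.75 and 5.33 to 7.12. The adult spread of Med10 was the widest of the knockout group (SD 0.87, n = 2). Its value of 0.81 ± 0.46 there did not pass. The arrays overlapped between the genotypes, at 6.06 and 5.33 in controls and 7.12 and 5.89 in knockouts. Med19 read 7.27 to 7.70, 6.01 to 6.38 and 5.04 to 5.42, Med26 6.05 to 6.63 in cells and 4.04 to 4.29 in the adult, and Med31 7.04 to 7.59, 6.52 to 7.06 and 5.63 to 6.31.

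Among the tail subunits and their neighbours, Med15, which SREBP factors bind in lipid control, read 7.75 to 8.27 in cells, 6.65 to 6.93 in embryonic and 6.10 to 6.52 in adult brown fat. Med16 read 6.71 to 7.23, 5.51 to 6.05 and 3.86 to 4.76. Med23 read 7.98 to 8.36, 6.77 to 7.12 and 5.95 to 6.42. Med23 binds ELK1, a factor of insulin and growth factor signalling, and its knockout values were 0.02 ± 0.09 in the embryo and -0.08 ± 0.19 in the adult. Med24 read 7.60 to 8.02, 6.76 to 7.03 and 5.98 to 6.14. Med25 read 7.96 to 8.34, 6.20 to 6.68 and 5.13 to 6.17, with a single low adult knockout array at 5.13. Med27 read 5.81 to 6.29, 4.8 to 5.48 and 3.85 to 4.62. Med28 read 6.81 to 7.23, 4.95 to 5.17 and 4.06 to 4.35, and Med30 6.28 to 6.94, 5.19 to 5.73 and 4.50 to 4.72. None of these 8 was called in any comparison.

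The remaining transcription machinery gives a scale for these counts, with 93 of 98 listed genes measured. Over the 4 pairs of knockout and wild-type cells 0 of the 93 were called, and the list medians lay between -0.07 (11 RNA polymerase II subunits) and 0.14 (7 cohesin genes). Between the days in wild-type cells the general factors Gtf2e2 (0.57 ± 0.12) and Gtf2h3 (0.57 ± 0.13), the polymerase subunit Polr2f (0.75 ± 0.17) and the elongation factor Aff1 (0.55 ± 0.12) rose, and the cohesin subunit Stag1 fell by 0.60 ± 0.13, while 0 of 12 TFIID TAFs and 0 of 14 Integrator genes were called. Aff1 lost its call without any one of the 4 wild-type arrays (limma adjusted p 0.061 to 0.088), and the other 4 genes lost theirs without some of them, with adjusted p up to 0.097 for Gtf2e2, 0.16 for Gtf2h3, 0.13 for Polr2f and 0.1 for Stag1. Knockout cells had Aff1 (0.58 ± 0.12), Polr2f (0.74 ± 0.17) and Taf5 (0.51 ± 0.12) called higher. These calls were lost without any one of the 4 knockout arrays (adjusted p 0.09 to 0.14, 0.065 to 0.21 and 0.097 to 0.27).

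Of the 15 factors known to bind MED1, 5 were called higher and 3 lower between the days in wild-type cells. In knockout cells 4 were called higher and 1 lower. These are 53.3% and 33.3% of the list, against 9.07% and 5.7% of all genes. The shares are descriptions, since the list was chosen with earlier results of these data known and holds the fat cell regulator Pparg. Leaving out 1 array ended some of these calls: in wild-type cells those of Gata2 (limma adjusted p up to 0.07), Ppargc1a (0.092) and Rara (0.074), and in knockout cells those of Pparg (0.063) and Ppargc1a (0.29). The largest rises in wild-type cells were those of Vdr (2.08 ± 0.15), Pparg (2.02 ± 0.13) and Cebpb (1.83 ± 0.15). Pparg, the receptor that binds the LXXLL motifs of MED1, was the only gene of these lists called between the genotypes on day 2 (-2.01 ± 0.13, adjusted p = 0.00037), where Med1 was the only subunit called. In E17.5 brown fat Thrb, a thyroid hormone receptor, was the single machinery gene called (-1.17 ± 0.18, adjusted p = 0.046), and in the adult none was. Thrb lost this call without any one of the 7 arrays (limma adjusted p 0.051 to 0.13), with values from -1.39 to -0.97.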

How the data were processed

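Affymetrix mouse whole-transcript arrays held RNA of 19 samples. The deposited table gives log2 signals of 41345 transcript clusters. The submitters' processing notes name Transcriptome Analysis Console and RMA without versions. RMA removes background, equalises the arrays it is run on and summarises the probes of a cluster, which compresses small differences of dim genes. The genome build is not given in the sources used here. Clusters with 1 gene symbol (23521; 1814 had several and 16010 none) were reduced to 22180 genes by taking, for the 1082 genes with several clusters, the cluster with the highest mean. No filter on dim genes was set.

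Groups were taken from sample titles. Tests were two-sided and used limma 3.58.1 (R 4.3.3) with its lmFit and eBayes functions, fitted within an experiment. P-values were adjusted by Benjamini-Hochberg over the whole table of genes, and those under 0.05 were called. The 4 cell groups shared a fit, and the genotypes over both days were compared with the 4 pairs of arrays as a block. These pairs share day and replicate number under either label of the day, and their deviations from the group means correlated at r = 0.35 on day 0 and 0.30 on day 2. Crossed numbers gave -0.35 and -0.30, since the deviations of 2 arrays in a group mirror each other. These correlations alone therefore do not establish the pairing. Values after ± are standard errors unless SD is written. The fits were tested on simulated data. Alternatives covered cluster choice, a filter, scaling, the variance model, the replicate block, the label of the day and left-out arrays.

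The members and gene lists were chosen with earlier results of these data known. Genes named in a comparison were Med1, every subunit past the threshold and, where under 3 passed, the largest fold changes among subunits whose arrays did not overlap, up to 3; other genes given with values were chosen after their values were seen.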

Additional observations from a re-analysis of the deposited data

Results flagged for a closer look

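Among the 4 E17.5 Myf5CreMed1f/f arrays, 3 subunits had 1 array far from the other 3 by Dixon's criterion. These are 9.09% of the subunits, against 19.1% of all genes in this group; equal values raise the share, to 43.6% of genes that have them against 5.99% of genes without. Chance gives about 5% where values are not equal, and 1 of the 25 subunits without equal values, Med7, met it. Med17 read 5.71 on replicate 1 and 5.60 on each of the others. Med12l read 5.93 on replicate 1 and 6.25 to 6.28 on the others. Med7 read 4.99 on replicate 3 and 5.48 to 5.55 on the others.

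The knockout effect differed between adult and embryonic brown fat for 4 of the 93 measured genes of the transcription machinery, against 1.99% of all genes, by the limma test of the difference (adult minus embryonic, log2). It was 0.85 ± 0.16 for Ccnt1, the cyclin of the elongation kinase (adjusted p = 0.025), and 0.85 ± 0.19 for the elongation factor Ell2 (adjusted p = 0.049). Polr2a, the largest polymerase subunit, had a difference of 1.13 ± 0.22 (adjusted p = 0.031), and the fatty acid receptor Ppara one of -2.17 ± 0.46 (adjusted p = 0.042). Polr2a read 6.95 to 7.17 in E17.5 controls against 7.30 to 7.75 in knockouts, and 6.42 and 6.88 against 8.25 and 8.37 in the adult. Ppara read 7.61 to 8.51 against 6.34 to 7.04 in the embryo, and 7.93 and 7.36 against 3.76 and 4.61 in the adult. Leaving out 1 array kept each direction but not each call: the limma adjusted p ran from 0.021 to 0.07 for Ccnt1, 0.043 to 0.11 for Ell2, 0.021 to 0.089 for Polr2a and 0.035 to 0.11 for Ppara. No subunit of Mediator passed this test. Age, Cre driver and control genotype all differ between these experiments and cannot be told apart in these values. Cell type markers differed in the same test: the 8 macrophage and leukocyte markers had a median of 1.24 with 4 called higher, and the 13 skeletal muscle markers one of -1.58 with 1 called lower. Their part in these values was not tested.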

How the results depend on the processing

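Another cluster per gene, centring and quantile normalization changed no subunit's call in any comparison. Fitting all 19 arrays at once called 177 genes over the cell pairs, 88 on day 0, 120 on day 2, 11 for the genotype by day difference, 1527 at E17.5, 2049 in the adult with 6 subunits, and 773 with 3 subunits for adult minus embryonic; 1 subunit stayed called between the days in knockout cells. With a filter on dim genes 98 genes were called over the pairs, 414 at E17.5, 58 in the adult, and 1 subunit for adult minus embryonic. Trend and robust variances called 245 over the pairs and 78 in the adult. Centring called 386 at E17.5 and 64 in the adult, and quantile normalization 64 in the adult. The causes were not tested.

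Days by the source label are the replicate numbers, with replicate 1 as day 0 and replicate 2 as day 2. With them 1 gene (0 subunits) was called on day 0, and 0 genes on day 2 and between the days in either genotype. Without the pair block this label called 9 genes over both days. Med1 then had values of -0.0101 between the days in wild-type cells, 0.00048 in knockout cells and 0.0106 for the difference of these, Med13l of -0.204 and -0.0921, and Med9 of -0.0077 in knockout cells.

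Replicate numbers did not pair the E17.5 arrays, whose deviations correlated at 0.31, -0.02 and 0.11. The adult arrays correlated at 0.33, from 2 pairs that are not independent, and no label says what a number shares there. A replicate block left 0 genes called at E17.5, 139 in the adult (against 6) and 1 for genotype by day. It gained 1 subunit call, Med29 between the days in wild-type cells (adjusted p = 0.016), and changed no other subunit's call.

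Leaving out 1 array, or 1 pair, gave 20 to 32 genes over the pairs, 3 to 25 on day 0 and 12 to 38 on day 2 (0 to 1 subunit each day), 1143 to 1596 between the days in wild-type and 496 to 605 (0 to 1 subunit) in knockout cells, 0 to 2 for genotype by day, 0 to 0 at E17.5 (limma, 2991 to 4548 at an unadjusted p under 0.05, smallest adjusted p 0.0506) and 0 to 0 in the adult (1984 to 2333, smallest 0.362), and 206 to 524 (0 to 1 subunit) for adult minus embryonic. Med1 between the days ran from -0.0793 to 0.196 in wild-type cells, and its difference between genotypes from -0.27 to 0.00065. The number of arrays limits precision.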
